A study of Homo sapiens with 15 samples.

Results

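The genes of the NRF2 antioxidant response were examined in A2058 cells, an established human malignant melanoma line. The members were 9 genes, namely NFE2L2 and KEAP1, which encode the transcription factor NRF2 and its sensor, and the NRF2 targets HMOX1, NQO1, GCLM, TXNRD1, SRXN1, OSGIN1 and PRDX1. They were found through the RefSeq accessions that the array design gives its probes, which yielded 10 probes of 58201 on the array and 9 of 22401 genes with a symbol. The rule used no measured value. In bulk RNA such as this, fewer cells of a type and less RNA per cell cannot be told apart.

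Cells were exposed for 8 hours to 3 µM of the compound labelled NP, to the biguanides metformin (5000 µM) and phenformin (50 µM), or to the solvents alone, DMSO for NP and water for the biguanides. Each of the 5 groups had 3 arrays from separate experiments, 15 arrays in all, and all groups were the same unmodified line, so nothing beyond compound and solvent set them apart by label. The title of the series names the compound neopetasin, whereas the study's methods describe petasin at the same dose and time in this line, and the arrays do not show which of them was used. The 3 compounds were given at different doses, so their responses are set side by side below and not ranked.

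NRF2 is held in the cytoplasm by KEAP1, which passes it to a ubiquitin ligase for degradation. Oxidants and electrophiles modify cysteines of KEAP1, NRF2 then accumulates, and it binds antioxidant response elements together with small MAF proteins to switch on genes of glutathione synthesis, the thioredoxin system, quinone reduction and heme breakdown. Because this control acts mainly on the protein, the mRNA of the targets is the usual readout of the pathway, and the mRNA of NFE2L2 and KEAP1 need not move with it. Tumour cells, melanoma cells among them, can draw on this system to withstand oxidative stress.

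Values are given below as the log2 signal minus the log2 of the array's 75th percentile, here called the log2 level, so a level of 0 lies at that percentile. A fold change is called where it reached 1.5-fold in either direction (0.585 on the log2 scale) with an adjusted p of 0.05 or less in limma, fitted over 26833 genes or transcripts. Levels of different genes come from different probes and are not compared with each other. DMSO and NP arrays lay on slides 1 and 2, and water, metformin and phenformin arrays on slides 3 and 4, with replicates 1 and 2 of each group on the first slide of its set. The water and metformin arrays of replicate 1 stood apart, with 77.3% and 76.2% of probes well above background against 44.3% to 65.2% on the other 13 arrays, and the larger moves of the members' values without replicate 1 are given beside them. Of 12 melanoma and melanocyte markers, 11 were well above background on all 15 arrays, while among markers of other cells this held for 2 of 4 keratinocyte, 2 of 6 fibroblast, 2 of 5 blood cell and 3 of 3 endothelial genes, with KRT5, KRT1 and COL3A1 not well above background on any array.

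The antioxidant response element has the core TGACNNNGC, or GCNNNGTCA when read on the opposite strand, and its first letters are shared with elements of other bZIP factors such as AP-1. RefSeq promoter windows of 300 bases, from 250 before to 50 after a start, were at hand for 7 of the 9 members (10 windows, GRCh38.p14). The core was found on either strand in 4 of the 10 windows, those of GCLM, KEAP1 and TXNRD1, compared with 13.3% of all 35116 windows. The windows of NFE2L2, NQO1, OSGIN1 and SRXN1 did not hold these letters, which says nothing of elements further away. One window with a match is printed 5′ to 3′ on the gene's strand for each of the 3 genes that had a match. These are the sensor KEAP1 and 2 targets, GCLM and TXNRD1, that differed between the solvents in opposite directions. OSGIN1 and NQO1 also did not overlap between the solvents, but their windows held no match and are not printed. Capitals mark the matches.
GCLM, chr1:93909381-93909680, minus strand: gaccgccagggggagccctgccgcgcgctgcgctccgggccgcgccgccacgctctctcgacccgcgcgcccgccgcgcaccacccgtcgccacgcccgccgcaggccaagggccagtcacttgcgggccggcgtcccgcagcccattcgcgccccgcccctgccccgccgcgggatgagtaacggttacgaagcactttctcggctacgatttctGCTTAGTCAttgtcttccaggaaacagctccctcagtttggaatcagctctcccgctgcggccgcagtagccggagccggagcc
KEAP1, chr19:10502722-10503021, minus strand: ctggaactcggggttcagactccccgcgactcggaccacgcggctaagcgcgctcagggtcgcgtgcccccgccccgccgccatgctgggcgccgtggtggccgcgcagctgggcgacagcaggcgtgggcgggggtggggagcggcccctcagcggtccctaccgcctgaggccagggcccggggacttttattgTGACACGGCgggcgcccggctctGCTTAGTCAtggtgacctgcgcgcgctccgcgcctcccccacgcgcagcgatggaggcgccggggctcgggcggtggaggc
TXNRD1, chr12:104215529-104215828, plus strand: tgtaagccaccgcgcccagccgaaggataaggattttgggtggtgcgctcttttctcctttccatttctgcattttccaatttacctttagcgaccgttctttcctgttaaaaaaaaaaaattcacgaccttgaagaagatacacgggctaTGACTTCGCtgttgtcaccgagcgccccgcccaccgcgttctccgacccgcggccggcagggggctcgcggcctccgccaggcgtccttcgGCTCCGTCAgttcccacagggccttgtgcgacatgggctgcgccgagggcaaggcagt
The match of GCLM began 34 bases before the start, those of KEAP1 54 and 31 bases before it, and those of TXNRD1 99 and 8 bases before it. The matched letters GCTTAGTCA were the same in GCLM and KEAP1. The other window of KEAP1 held no match, and the other window of TXNRD1 held 1 match, GCTTTGTCA, 102 bases before its start. A match is a description of the letters and not evidence of binding in these cells.

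None of the members was called after NP, metformin or phenformin against its own solvent. Of the 8 members tested, 0 were called after NP, where 0.0373% of all features were, 0 after metformin (0% of all features) and 0 after phenformin (0.0261% of all features). Before adjustment, 0 of 8 members reached a limma p of 0.05 in each comparison, beside 4.69%, 2.46% and 2.35% of all features. By the methods' paired t-test before adjustment, 1 of 8 members reached 0.05 after NP (7.6% of all features), 2 of 8 after metformin (11.7%) and 0 of 8 after phenformin (5.22%), all under 1.5-fold. These were KEAP1 after NP, which was lower in every pair (unadjusted p = 0.0399), and after metformin HMOX1, lower in every pair (unadjusted p = 0.0254), and OSGIN1, higher in every pair (unadjusted p = 0.0189). After adjustment over all features that test called 0 members. The median log2 fold change of the members was -0.02 after NP, -0.02 after metformin and -0.05 after phenformin, beside medians of -0.01, 0.0044 and -0.03 over all features. A p above the threshold does not show that a gene was unaffected, so the 95% intervals are given. They lay within 1.5-fold in either direction for all 8 members tested in each of the 3 comparisons, which was true of 53.4%, 53% and 55.2% of all features. These 8 were well above background on all 15 arrays, which held for 19437 of the 26833 features. The shares are thus not matched for brightness, and the members are not read as unusually stable.

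NFE2L2, the gene of NRF2 itself, was the single member without a measured level. Its probe was not well above background on any of the 15 arrays, with log2 levels between -6.70 and -4.62, so no fold change is given for it. KEAP1, the adaptor that marks NRF2 for degradation, was well above background on all 15 arrays and is printed on each array as 10 spots.

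KEAP1 had log2 levels of 2.35, 2.30 and 2.33 on the DMSO arrays and 2.17, 2.11 and 2.24 on the NP arrays. All 3 NP arrays were below all 3 DMSO arrays, which made KEAP1 the 1 of 8 members whose groups did not overlap in this comparison, beside 6.45% of all features (3.42% with NP lower). The log2 fold change was -0.15 (SE 0.10, 95% interval -0.37 to 0.07), or 0.899-fold, with an adjusted p of 1.00 in limma. The log2 levels of KEAP1 were 2.18, 2.43 and 2.27 after water, 2.17, 2.37 and 2.27 after metformin and 2.40, 2.37 and 2.23 after phenformin. These 3 groups overlapped, and the log2 fold changes against water were -0.02 (95% interval -0.25 to 0.20) for metformin and 0.04 (-0.18 to 0.27) for phenformin, the latter -0.05 without replicate 1.

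HMOX1 encodes heme oxygenase, which breaks heme into biliverdin, iron and carbon monoxide, and it showed the highest value of the members after NP. Its log2 levels were 3.74, 3.78 and 4.06 with DMSO and 3.73, 4.12 and 4.17 with NP. NP arrays 2 and 3 lay above every DMSO array and NP array 1 lay below them all. The log2 fold change was 0.15 (SE 0.11, 95% interval -0.09 to 0.38), with differences of -0.01, 0.34 and 0.11 in the 3 pairs of the same replicate number, and it was 0.23 without replicate 1. With water HMOX1 had levels of 3.69, 3.76 and 3.98, with metformin 3.597, 3.66 and 3.83, and with phenformin 3.74, 3.70 and 3.74. The pairs with metformin were lower in 3 of 3 and those with phenformin in 2 of 3, while both groups overlapped with water. The log2 fold changes were -0.11 (95% interval -0.34 to 0.13) and -0.08 (-0.32 to 0.15), the latter -0.15 without replicate 1.

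GCLM encodes the modifier subunit of glutamate-cysteine ligase, the first enzyme of glutathione synthesis. Its log2 levels were 5.96, 6.03 and 6.26 with DMSO and 6.03, 6.02 and 6.09 with NP, and the log2 fold change was -0.04 (SE 0.14, 95% interval -0.34 to 0.27). The NP arrays lay inside the range of the DMSO arrays. With water the levels were 5.77, 5.15 and 5.45, with metformin 5.35, 5.00 and 5.40, and with phenformin 5.31, 5.19 and 5.49. GCLM had the lowest value of the members after both biguanides, -0.21 (SE 0.14, 95% interval -0.51 to 0.09) after metformin and -0.13 (-0.43 to 0.17) after phenformin. The first pair carried most of it, with differences of -0.42 and -0.46 in pair 1, against -0.15 and -0.05 for metformin and 0.04 and 0.04 for phenformin in pairs 2 and 3, and water replicate 1 was among the arrays that stood apart, whose part in this was not tested. Without replicate 1 the metformin value was -0.10 and the phenformin value 0.04.

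NQO1, the quinone reductase often used as a marker of NRF2 activity, had log2 levels of 3.00, 2.76 and 2.42 with DMSO and 2.89, 2.84 and 2.37 with NP. Replicate 3 was lowest in both groups, and the log2 fold change was -0.03 (SE 0.20, 95% interval -0.47 to 0.41). With water the levels were 1.88, 2.29 and 2.33, with metformin 1.82, 2.23 and 2.20, and with phenformin 1.94, 2.10 and 2.16. The 3 groups overlapped, at log2 fold changes of -0.08 (95% interval -0.53 to 0.36) and -0.10 (-0.54 to 0.34), the latter -0.18 without replicate 1.

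The members that act with thioredoxin and peroxiredoxin also gave small differences from their solvents. TXNRD1, cytosolic thioredoxin reductase, read here by a probe of 1 of its transcripts, had log2 levels of 1.21, 1.19 and 0.97 with DMSO and 1.13, 1.18 and 1.09 with NP, a log2 fold change of 0.0092 (95% interval -0.22 to 0.23). With water it had levels of 1.501, 1.67 and 1.59, with metformin 1.68, 1.71 and 1.55, and with phenformin 1.51, 1.66 and 1.74, and the log2 fold changes were 0.06, or -0.0027 without replicate 1, and 0.05. SRXN1, sulfiredoxin, which restores over-oxidized peroxiredoxins, lay between 4.01 and 4.49 on all 15 arrays, and its log2 fold changes were 0.0063 after NP, -0.01 after metformin and -0.02 after phenformin. PRDX1, a peroxiredoxin that reduces hydrogen peroxide, lay between 7.63 and 8.03 by the brighter of its 2 probes, with log2 fold changes of -0.02, -0.0054 and -0.0094. The second PRDX1 probe gave -0.06 after NP and 0.00042 and 0.00039 after the biguanides, and without replicate 1 the brighter probe gave -0.090 after metformin and -0.14 after phenformin.

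OSGIN1, an oxidative stress-induced growth inhibitor, varied most among the tested members within the DMSO group. Its log2 levels were -1.31, -0.74 and -0.50 with DMSO and -0.78, -0.78 and -1.02 with NP. The pairs went in different directions, with differences of 0.53, -0.03 and -0.53, and the log2 fold change was -0.0093 (SE 0.18, 95% interval -0.42 to 0.40), or -0.28 without replicate 1. With water the levels were -0.08, -0.16 and -0.10, with metformin 0.06, -0.07 and 0.04, and with phenformin -0.17, -0.10 and -0.40. All 3 metformin arrays lay above all 3 water arrays, which was the case for 1 of 8 members in this comparison, where 5.75% of all features did not overlap. The log2 fold change after metformin was 0.12 (SE 0.18, 95% interval -0.28 to 0.53), and after phenformin it was -0.11 (-0.52 to 0.30). None of the 8 tested members parted phenformin from water, beside 8.13% of all features.

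**Figure D1:**
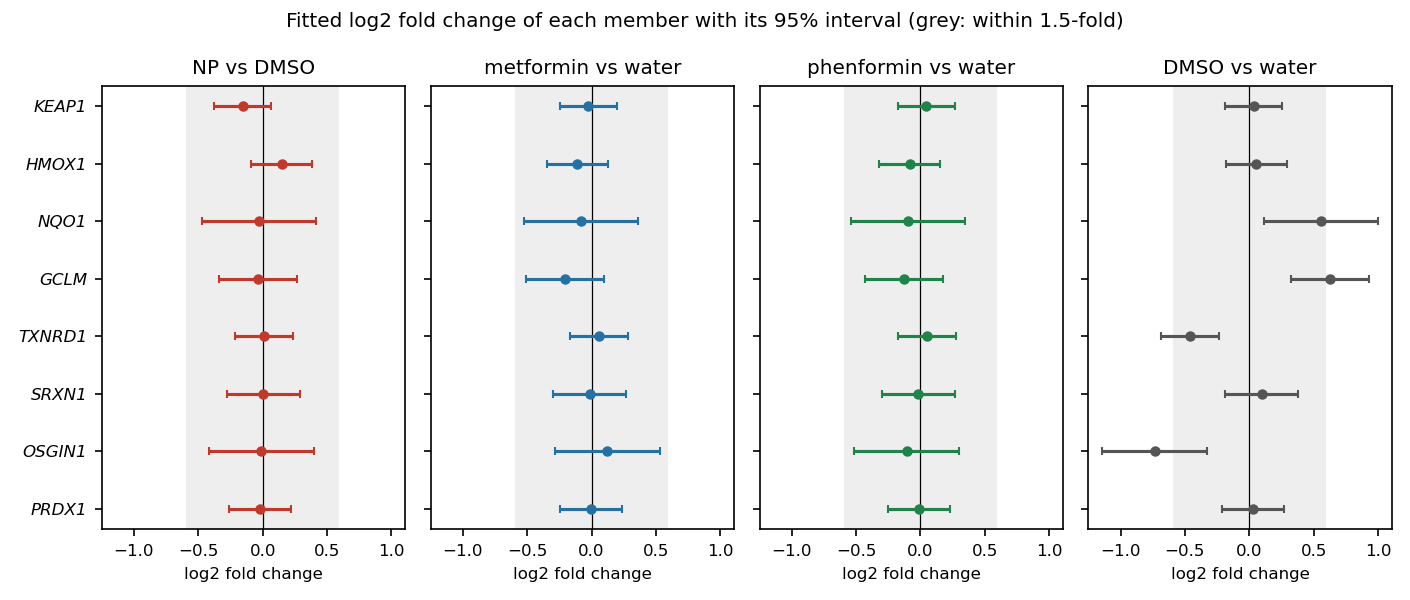
Fitted log2 fold change (horizontal axis) of the 8 members tested (vertical axis) in NP against DMSO, metformin against water, phenformin against water and DMSO against water. Points are limma estimates from 3 arrays per group, bars are 95% intervals and grey marks changes under 1.5-fold. Every interval of the first 3 panels lies within the grey band and includes 0, and in the last panel the intervals of NQO1, GCLM, TXNRD1 and OSGIN1 leave out 0.

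The response to NP was also set against that to each biguanide, with every compound taken relative to its own solvent and at its own dose. None of the 8 members was called against metformin (0% of all features) or against phenformin (0% of all features), and 0 of 8 reached an unadjusted limma p of 0.05 in either, beside 2.78% and 2.43% of all features. HMOX1 had the highest value in both, 0.26 (95% interval -0.08 to 0.59) for NP minus metformin and 0.23 (-0.10 to 0.56) for NP minus phenformin. The lowest were OSGIN1 at -0.13 (-0.71 to 0.44) and KEAP1 at -0.20 (-0.51 to 0.12).

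The solvents themselves differed. With DMSO, GCLM was higher and OSGIN1 lower than with water, so 2 of 8 members were called, where 10.6% of all features were. GCLM, at levels of 5.96 to 6.26 with DMSO against 5.15 to 5.77 with water, differed by 0.63 on the log2 scale (SE 0.14, 95% interval 0.32 to 0.93), or 1.54-fold, with an adjusted p of 0.0153 in limma. OSGIN1, at -1.31 to -0.50 against -0.16 to -0.08, differed by -0.73 (SE 0.18, 95% interval -1.14 to -0.32), or 0.602-fold, with an adjusted p of 0.0251 in limma. TXNRD1 differed by -0.46 (SE 0.10, adjusted p = 0.0154 in limma), which passed the p but not the fold, and NQO1 by 0.56 (SE 0.20, adjusted p = 0.0785 in limma), which passed neither. NQO1 depended on the block in the model and was called at 0.78 with a slide term (adjusted p = 0.00301 in limma) and at 1.01 with a separate block for every slide set (adjusted p = 0.000975 in limma). With that separate block GCLM was not called, at 0.42 (adjusted p = 0.0503 in limma). The same-numbered DMSO and water arrays did not deviate together, at r of -0.10, -0.19 and -0.02. KEAP1, HMOX1, SRXN1 and PRDX1 had values from 0.03 to 0.10, and these were the 4 of 8 members whose 95% intervals lay within 1.5-fold, beside 33.1% of all features.

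The DMSO and water groups did not overlap for 4 of 8 members, GCLM, NQO1, TXNRD1 and OSGIN1, beside 29.6% of all features. For the same 4 genes all 6 DMSO and NP arrays lay on one side of all 9 water, metformin and phenformin arrays, which held for 15.6% of all features. The 4 genes took no common direction, with 2 higher and 2 lower in the DMSO set. The median over all features was -0.12 in this comparison and the median of the members 0.04. No slide held both solvents, so solvent and slide cannot be told apart. Without replicate 1 or without replicate 2 neither gene was called, but neither was any other feature (0 of 26833). GCLM then had values of 0.84 and 0.50, OSGIN1 -0.49 and -0.81, and NQO1 0.28 and 0.60. Without replicate 3, when 18.9% of all features were called, GCLM was not called, at 0.53, and NQO1 was, at 0.79.

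Other NRF2 targets were examined in the same way. Of 48 further targets in 6 functional groups, 43 were tested. Against the own solvent, 0 of 43 were called after NP, metformin and phenformin, beside 0.0373%, 0% and 0.0261% of all features. Before adjustment, at p of 0.05 in limma, 1 was higher and 1 lower after NP, and 1 higher and 1 lower after phenformin, where 2.81% and 1.88%, and 0.816% and 1.54% of all features were. These were SLC7A11 and AKR1C1 after NP, and SLC7A11 and AKR1B10 after phenformin (AKR1B10 -0.37, adjusted p = 1.00 in limma). AKR1B10, an aldo-keto reductase, was named after its values were seen. The median log2 fold change of the 43 genes was -0.0096, 0.02 and 0.0011 after NP, metformin and phenformin. AKR1C2, TRIM16 and TRIM16L had no probe matched by accession, and ADH7 and CYP4F11 were too dim to test.

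The highest value in all 3 comparisons was that of SLC7A11, the cystine carrier of the cystine-glutamate exchanger, which supplies cysteine for glutathione and which is also a target of the stress factor ATF4. Its log2 levels were 4.20, 4.15 and 4.22 with DMSO and 4.85, 5.16 and 4.96 with NP, so that all NP arrays lay above all DMSO arrays. The log2 fold change was 0.79 (SE 0.16, 95% interval 0.43 to 1.16), or 1.73-fold, and 3 of 3 pairs were higher by 0.64, 1.01 and 0.73. The adjusted p was 0.235 in limma, which does not pass, while the adjusted p was 0.0223 in limma with a slide term beside the replicate number, 0.0317 in limma with a separate block for every slide set and 0.027 in limma with slide as a random block, and it ranged from 0.0223 to 1.00 over the alternatives with adjustment. With water the levels were 2.54, 2.64 and 3.15, with metformin 2.77, 3.04 and 3.603, and with phenformin 3.13, 3.21 and 3.54. All 3 pairs were higher with each biguanide, at log2 fold changes of 0.36 (95% interval -0.0024 to 0.72, adjusted p = 1.00 in limma) and 0.52 (0.15 to 0.88, adjusted p = 1.00 in limma), although the groups overlapped. The NP effect minus the metformin effect was 0.43 (95% interval -0.08 to 0.95), and minus the phenformin effect 0.28 (-0.23 to 0.79), neither of which passed.

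Of the 11 genes of the glutathione group, 9 had 95% intervals within 1.5-fold after NP, SLC7A11 and GPX2 being the others, and the lowest value was -0.26. GCLC, the catalytic partner of GCLM, had log2 fold changes of 0.06 (95% interval -0.36 to 0.48) after NP, -0.29 (-0.71 to 0.13) after metformin and -0.02 (-0.44 to 0.40) after phenformin. Its 3 pairs after metformin were all lower, at -0.32, -0.29 and -0.26, and its probe was well above background on all 15 arrays. The median of the 11 genes of the group was -0.0046 after NP, 0.0019 after metformin and 0.04 after phenformin. The 6 genes of NADPH supply, which feed the reductases, had medians of -0.03, 0.07 and 0.03, and the 7 genes of iron and heme handling 0.01, 0.02 and -0.0023. TXN, thioredoxin, had values of 0.05, -0.03 and -0.02.

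The 12 tested genes of detoxification had medians of -0.07, 0.0038 and -0.08, and the 6 of signalling and other functions 0.10, 0.03 and -0.04. Among the further targets whose 3 pairs went the same way, the other large values, apart from that of GCLC, came with wide intervals or dim probes. The intervals rest on a spread shared by all 5 groups, so a wide one can come from arrays outside the comparison. The lowest value of the signalling group after phenformin, -0.57, came from a gene whose pairs did not all go the same way. AKR1C1, an aldo-keto reductase with close paralogs, had -0.81 after NP (95% interval -1.50 to -0.11, adjusted p = 0.984 in limma), but was well above background on 1 of 3 NP arrays and 2 of 3 DMSO arrays. RIT1, a small GTPase, had 0.30 after NP with an interval from -1.30 to 1.90, while its SD was 0.07 on the NP arrays and 0.26 on the DMSO arrays. GPX2, a glutathione peroxidase, had 0.33 after metformin (-1.01 to 1.68). It passed the background filter only through the metformin group, where its mean was highest, so no change after metformin is read from it. ALDH3A1, an aldehyde dehydrogenase, had -0.45 after phenformin (-1.57 to 0.67). Its 3 pairs were -0.49, -0.51 and -0.36, with an SD of 0.12 on the phenformin arrays and 0.07 on the water arrays. UGT1A6, a glucuronosyltransferase that shares exons with its neighbours, had -0.43 after phenformin (-1.74 to 0.89). It passed the background filter only through the water group, where its mean was highest, so no fall after phenformin is read from it. After NP it had 0.53, but it was not well above background on any DMSO or NP array.

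Regulators and partners of NRF2 and other antioxidant enzymes were not called after any compound. All 14 regulators and 20 of 21 other antioxidant enzymes were tested, with 0 called in limma and 0 reaching an unadjusted p of 0.05 in each of the 3 comparisons, beside 0.0373%, 0% and 0.0261% of all features called and 4.69%, 2.46% and 2.35% before adjustment. The medians of the regulators were -0.05, 0.02 and 0.0017 after NP, metformin and phenformin, and those of the other enzymes -0.0074, -0.0022 and 0.04.

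With DMSO against water, 3 of the 43 further targets were called, all higher, beside 10.6% of all features. SLC7A11 was higher by 1.42 on the log2 scale (SE 0.16, adjusted p = 0.00339 in limma). ME1 and IDH1, enzymes that make NADPH, were higher by 0.93 and 0.76, and their DMSO and water arrays did not overlap. Among the regulators, 3 of 14 were called, namely PGAM5, a mitochondrial phosphatase bound by KEAP1, at -0.69, DPP3, a peptidase that binds KEAP1, at -0.59, and CREBBP, a coactivator, at 0.66. TXNRD2, the mitochondrial thioredoxin reductase, was the 1 of 20 other antioxidant enzymes called, at -0.89 (adjusted p = 0.0062 in limma). As above, solvent and slide cannot be told apart for these genes, and without replicate 1 or without replicate 2 none of the 43 further targets was called, nor any of all 26833 features.

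The genes whose pattern was most like that of 3 members were sought over the 9 differences of a treated array from the solvent array of the same number, among 13863 genes with a symbol above background on all arrays. These differences share solvent arrays, so Pearson's r is given as a description. For HMOX1 the closest were AKTIP (r = 0.97), IL1B (0.96) and CCNB2 (0.96). For NQO1 they were SCARNA13 (0.98), NEBL (0.94) and SUMO1P3 (0.94), and for TXNRD1 they were EXOC5 (0.95), KIRREL1 (0.93) and LINC01563 (0.92). None of these 9 genes was on a list of the pathway. The lists hold 9 members, 48 further targets, 14 regulators and 21 other antioxidant enzymes, a small part of the 13863 genes searched. No result about the pathway is read from this count.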

How the data were processed

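A2058 cells were profiled on 15 single-colour Agilent arrays. The authors extracted spot intensities with Agilent Feature Extraction (9.1 per the labels, 10.7.3.1 per the file headers), with background subtraction and detrending and no scaling between arrays. A deposited table of log2 values, scaled to a common 75th percentile and floored, served as an alternative, and the deposited spot flags marked dim and outlier spots.

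Control spots were removed, outlier spots (258 values after the selection of probes) were treated as missing, replicate spots were averaged, and the array's 75th percentile was subtracted on the log2 scale. Of 58201 probes, 32912 passed the background flag on every array of some group. The brightest of a gene's probes represented it, and a value on at least 8 arrays was required, leaving 26833 features, of which 16571 had a symbol and 19437 were above background on all 15 arrays. Accessions matched a symbol for 31038 of 31770 probes that carry one. Symbols and promoter windows came from RefSeq.

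All arrays entered 1 linear model of group and replicate number in limma 3.58.1 (R 4.3.3, statmod 1.5.0), tested on both sides, and p was adjusted over every feature by Benjamini-Hochberg. Tables and figures were made with Python 3.11.15, numpy 2.4.6, pandas 2.3.3 and matplotlib 3.10.9. Samples were grouped by their labels. The labels number the replicates 1 to 3 in every group and the design text names separate experiments. Deviations from the group means correlated between same-numbered arrays at 0.31, 0.33 and 0.65 for NP and DMSO, 0.86, 0.44 and 0.80 for metformin and water, and 0.30, 0.24 and 0.40 for phenformin and water, but at -0.10, -0.19 and -0.02 for DMSO and water. Replicate arrays of a group correlated at r of 0.974 to 0.997 and none were identical.

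Named beside the members were genes of the pathway lists called in any comparison and, per comparison with the own solvent, the 3 further targets with the largest change that went the same way in all 3 pairs. The members and lists were chosen with earlier results of these data known. The count of further targets before adjustment after metformin is not reported here. The alternatives varied the block (none, with a slide term, within each set of slides, with slide random), the background correction (normexp, median spot signal), the normalization (quantile, the authors' table), the filter on dim probes, the averaging of probes, the arrays in the fit (only the compared groups, each replicate left out) and the test (the methods' paired t-test). The tests were checked on simulated data. The 3 arrays per group limit the precision.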

Additional observations from a re-analysis of the deposited data

Results flagged for a closer look

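DPP3 and GPX2 were flagged because their pairs went in opposite directions, and the share of all features with such pairs was not counted. For DPP3, which binds KEAP1, all 3 pairs moved down after NP and up after both biguanides. Both biguanides were set against the same 3 water arrays. The pairs were -0.08, -0.06 and -0.14 on the log2 scale for NP, 0.15, 0.23 and 0.20 for metformin and 0.22, 0.21 and 0.08 for phenformin. The difference was -0.29 (SE 0.13) for NP minus metformin and -0.26 (SE 0.13) for NP minus phenformin, and neither passed, with an adjusted p of 1.00 in limma for both. For GPX2 the pairs were -0.13, -0.44 and -0.0059 for NP and 0.37, 0.47 and 0.16 for metformin. The difference was -0.53 (SE 0.85, adjusted p = 1.00 in limma), and the probe was well above background on 1 of 3 NP and 1 of 3 DMSO arrays. It was so on 2 of 3 water and 3 of 3 metformin arrays. The probe passed the background filter only through the metformin group, where its mean was highest, so nothing is read from this flag.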

How the results depend on the processing

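In the comparisons with the own solvent, 0 members were called under every alternative run, and the fit with no replicate block as well called 0 after NP, metformin and phenformin, and 2 in DMSO against water. The median of the members after metformin ranged from -0.061 to 0.0037 when a replicate was left out.

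In DMSO against water 2 members, 3 further targets and 10.6% of all features were called. With the slide term these were 3, 6 and 21.9%, with the block within each set of slides 2, 9 and 24.6%, NQO1 being called with both and GCLM not with the second. With slide as a random block they were 0, 1 and 1.69%, in a fit of only the groups compared 0, 0 and 0%, by the methods' paired t-test 0, 0 and 0.0112% with adjustment and 0, 1 and 5.48% without, and with no filter on dim probes 1 member and 4.41%. With a replicate left out they were 0 to 2 members, 0 to 7 targets and 0% to 18.9%. After NP 1 further target, SLC7A11, was called with the slide term (0.235% of all features) and the block within each set of slides (0.194%). It was also called with slide as a random block (0.239%) and by the unadjusted paired t-test (0.801%), and 0 were called otherwise. The cause was not tested.

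Of the log2 fold changes of members under alternatives, 32 changed sign, and none of these passed the test. With normexp, DMSO against water gave -0.015 for KEAP1, -0.047 for HMOX1, -0.043 for SRXN1 and -0.021 for PRDX1, and NP gave -0.0033 for SRXN1 and 0.00098 for OSGIN1. With the slide term, DMSO against water gave -0.0034 for KEAP1 and -0.012 for SRXN1. The block within each set of slides gave -0.074 for HMOX1, the authors' table -0.0010 for SRXN1 after NP, and quantile normalization 0.044 for PRDX1 after phenformin. With a replicate left out, the ranges after NP were -0.078 to 0.012 for NQO1, -0.087 to 0.031 for GCLM, -0.044 to 0.054 for TXNRD1, -0.12 to 0.084 for SRXN1, -0.28 to 0.25 for OSGIN1 and -0.10 to 0.024 for PRDX1. After metformin they were -0.0027 to 0.11 for TXNRD1, -0.032 to 0.012 for SRXN1 and -0.090 to 0.040 for PRDX1. After phenformin they were -0.046 to 0.095 for KEAP1, -0.21 to 0.039 for GCLM, -0.00030 to 0.078 for TXNRD1, -0.060 to 0.047 for SRXN1 and -0.14 to 0.083 for PRDX1. In DMSO against water they were -0.036 to 0.12 for KEAP1, -0.062 to 0.29 for SRXN1 and -0.11 to 0.11 for PRDX1. Low signal over background limits NFE2L2, AKR1C1, GPX2 and UGT1A6.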
